A study of Mus musculus with 48 samples.

Results

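The genes described here are the 10 that carry the main steps of sphingosine phosphate handling: the kinases Sphk1 and Sphk2, the lyase Sgpl1, the phosphatase Sgpp1, the exporter Spns2 and the receptors S1pr1, S1pr2, S1pr3, S1pr4 and S1pr5. They were chosen by symbol, and all 10 were found among the 27281 genes of the deposited table, of which 18178 carry a symbol. A mean log2 value of at least 1 over the 48 samples was required for testing, which 13409 genes and 8 of the 10 members reached. S1pr4 and S1pr5 lay under this minimum and were not tested.

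RNA-Seq was run on STHdh cells, purchased and conditionally immortalized mouse striatal progenitor lines on a C57BL/6 background, with 3 samples in each of 16 conditions. STHdhQ111 cells, which carry the expanded huntingtin knock-in on both alleles, were given DMSO vehicle or 1 of 14 compounds dissolved in DMSO or water, and wild-type STHdhQ7 cells were given vehicle. Every condition lasted 24 hours in medium without serum. Fingolimod phosphate was given at 250 nM and 4-deoxypyridoxine at 4 mM. A dose of 10 uM was used for diacylglycerol kinase inhibitor II, meclizine, cyproheptadine, loxapine and selisistat, 5 uM for pizotifen, 250 uM for cysteamine and 1 mM for sodium butyrate. Trichostatin A was given at 10 nM, nortriptyline at 1 nM, and nicotinamide and haloperidol at 0.5 nM, as the labels state them. The labels do not say that replicates were separate cultures, so a p-value here measures the spread between these samples. The values are log2 normalized abundances as the authors deposited them. They are not divided by gene length, so levels are not compared between genes, and they behave like a regularized logarithm, which understates folds of weakly expressed genes. The table gives no read counts, which leaves the sequencing depth unknown.

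Sphingosine kinases phosphorylate sphingosine, which ceramidases release from ceramide. The phosphate is turned back into sphingosine by phosphatases or cleaved for good in the endoplasmic reticulum by the lyase, an enzyme that uses pyridoxal phosphate, the active form of vitamin B6. Exported sphingosine phosphate acts on G protein-coupled receptors, which in the nervous system are known from astrocytes, oligodendrocytes and progenitor migration. Fingolimod phosphate mimics the lipid at all of these receptors except S1pr2, and 4-deoxypyridoxine is a vitamin B6 antagonist used to inhibit the lyase.

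The lines were checked against marker genes. Of 12 neural progenitor and striatal markers, 8 were tested, among them Vim, at a mean of 15.42 in STHdhQ111 and 15.60 in STHdhQ7 vehicle samples. Nes, Sox2 and Pax6 had means of 4.96, 4.81 and 2.81 in STHdhQ111 and 10.95, 8.91 and 5.41 in STHdhQ7 vehicle samples. Foxp1 was higher in STHdhQ111, at 9.99 against 9.21. Drd1, the dopamine receptor of mature striatal neurons, lay at the floor of the scale with a mean of -2.18, and Drd2 was not in the table. Of 6 endothelial markers 4 were tested, with Pecam1 at a mean of 8.23 in STHdhQ111 vehicle samples and the defining marker Cdh5 at 0.24. Of 6 myeloid and lymphoid markers 2 were tested, with Ptprc at 10.59 and the defining marker Aif1 at -2.18. Of 6 oligodendrocyte markers 1 was tested, and Sox10, Olig1 and Olig2 were not in the table. These are bulk values, so fewer cells of a type and less RNA per cell cannot be told apart.

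Of the receptors that fingolimod phosphate binds, S1pr1 and S1pr3 were tested against vehicle, and limma called neither. S1pr1, the receptor that couples to inhibitory G proteins, stood at 7.56, 7.61 and 7.81 in the treated samples and at 7.56, 7.52 and 7.60 in the vehicle samples. The groups overlapped, and the log2 difference was 0.10 with a 95% confidence interval of -0.13 to 0.34. Without treated replicate 3 it was 0.02. S1pr3, which also couples to G proteins of the Gq and G12/13 classes, stood at 4.94, 5.13 and 5.20 against 5.35, 5.18 and 5.28. Treated replicates 1 and 2 lay under every vehicle sample, replicate 3 lay within their range, and the difference was -0.18 (-0.38 to 0.01). Without treated replicate 1 it was -0.09. S1pr2, which the compound does not bind, differed by 0.01 (-0.10 to 0.12).

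Limma called no enzyme with fingolimod phosphate either. The lyase Sgpl1 stood at 12.08, 12.07 and 12.02 against 12.07, 12.10 and 12.00 in vehicle, fully overlapping, with a difference of 0.00059 (-0.11 to 0.11). Sgpp1, which dephosphorylates sphingosine phosphate in the endoplasmic reticulum, stood at 9.78, 9.76 and 9.80 against 9.72, 9.62 and 9.72. All 3 treated samples lay above all vehicle samples, by a small margin, and the difference was 0.09 (-0.03 to 0.21, limma adjusted p = 0.62), and 0.06 without vehicle replicate 2. The kinase Sphk2 stood at 7.74, 7.67 and 7.72, just under all vehicle samples at 7.76, 7.81 and 7.80, with a difference of -0.08 (-0.22 to 0.07, limma adjusted p = 0.78). Limma called 0 of the 8 tested members at an adjusted p under 0.05 and 0 had an unadjusted p under 0.05, beside 0.0597% of all genes called, which is 8 genes, and 1404 genes at an unadjusted p under 0.05. The median log2 difference was 0.0067 over the members and 0.0016 over all genes. Each member's interval lay between -0.38 and 0.34, so larger differences lie outside what these samples allow on this scale.

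With 4-deoxypyridoxine, the RNA of the lyase was lower and that of the phosphatase higher than in vehicle, each by little. Sgpl1 stood at 11.92, 11.79 and 11.94 against 12.07, 12.10 and 12.00 in vehicle. All 3 treated samples lay under all vehicle samples, and Sgpl1 fell by 0.17 on the log2 scale, 1.13-fold (95% interval -0.29 to -0.06, limma adjusted p = 0.024). Sgpp1 stood at 9.85, 9.87 and 9.85, above each vehicle sample and nearly without spread. It rose by 0.17, which is 1.12-fold (0.05 to 0.29, limma adjusted p = 0.042). Limma called these 2 of the 8 tested members, beside 20.1% of all genes, and the median difference was -0.048 over the members and 0.0045 over all genes.

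Both calls were near the threshold. The Sgpl1 call was lost without vehicle replicate 1 (-0.17), vehicle replicate 2 (-0.15) or treated replicate 2 (-0.13), with limma adjusted p-values of 0.087, 0.11 and 0.19. The Sgpp1 call was lost without vehicle replicate 1 (0.19) or 2 (0.13) and without treated replicate 1 (0.17), 2 (0.16) or 3 (0.17), with limma adjusted p-values of 0.067, 0.21, 0.084, 0.12 and 0.076. With only the compared samples in the fit, limma adjusted p-values were 0.13 for Sgpl1 and 0.099 for Sgpp1. For Sgpp1 they were also 0.056 without the filter on low values, 0.054 with the collection time as a further term and 0.051 after shifting samples to one median.

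Limma called no tested receptor with 4-deoxypyridoxine. The samples of each did not overlap with those of vehicle, for which an exact permutation test gave p = 0.1, the smallest that 3 against 3 allow. The share of all genes that separated in this way is not given, here or in the other comparisons. S1pr1 stood at 7.72, 7.86 and 7.74, above all 3 vehicle samples, with a difference of 0.22 (-0.02 to 0.45, limma adjusted p = 0.2). S1pr3 stood at 5.18, 5.06 and 5.14, under all vehicle samples though the closest agreed to 2 decimals, with a difference of -0.15 (-0.34 to 0.05, limma adjusted p = 0.3). S1pr2 stood at 9.04, 8.97 and 8.98, under all vehicle samples at 9.06, 9.08 and 9.07, with a difference of -0.08 (-0.19 to 0.03). The kinases and Spns2 overlapped with vehicle.

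Collection slots set a limit on these comparisons. The labels give each sample a collection day and time, and neither fingolimod phosphate nor 4-deoxypyridoxine shares a day and time combination with the vehicle, although every condition spans all days or most of them. Cyproheptadine and diacylglycerol kinase inhibitor II were collected on days 2 and 3 only, and share 2 slots with the vehicle. They were not compared with another reference in the same slots. Haloperidol was collected in the slots of fingolimod phosphate, and nicotinamide and nortriptyline in those of 4-deoxypyridoxine, each at a nanomolar dose or less. Against haloperidol, limma again called 0 of the 8 tested members and 0 had an unadjusted p under 0.05, beside 0% of all genes called and 1033 genes at an unadjusted p under 0.05. S1pr3, at 5.25, 5.25 and 5.26 with haloperidol, lay above each fingolimod phosphate sample, and the difference was -0.17 (-0.36 to 0.03, limma adjusted p = 0.72). Without fingolimod phosphate replicate 1 it was -0.08.

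Against nicotinamide and nortriptyline, the difference of the phosphatase stayed and that of the lyase shrank. Sgpp1 stood at 9.66, 9.49 and 9.75 with nicotinamide and at 9.66, 9.66 and 9.64 with nortriptyline. All 3 samples with 4-deoxypyridoxine lay above all 6 of these, and Sgpp1 rose by 0.21 (0.11 to 0.32, limma adjusted p = 0.0071). S1pr3 did not overlap with the references either, with all 3 treated samples under all 6 of them, and its difference of -0.12 was not called (limma adjusted p = 0.39). The differences of S1pr1 and Sphk1, 0.10 and -0.20, were not called (limma adjusted p = 0.57 and 0.19). Sgpl1 stood at 11.93, 11.85 and 11.89 with nicotinamide and at 11.95, 12.00 and 11.92 with nortriptyline. These overlapped with the samples given 4-deoxypyridoxine, and the difference was -0.04 (-0.14 to 0.06, limma adjusted p = 0.65). Limma called 1 of the 8 tested members here, beside 10.6% of all genes.

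**Figure D1:**
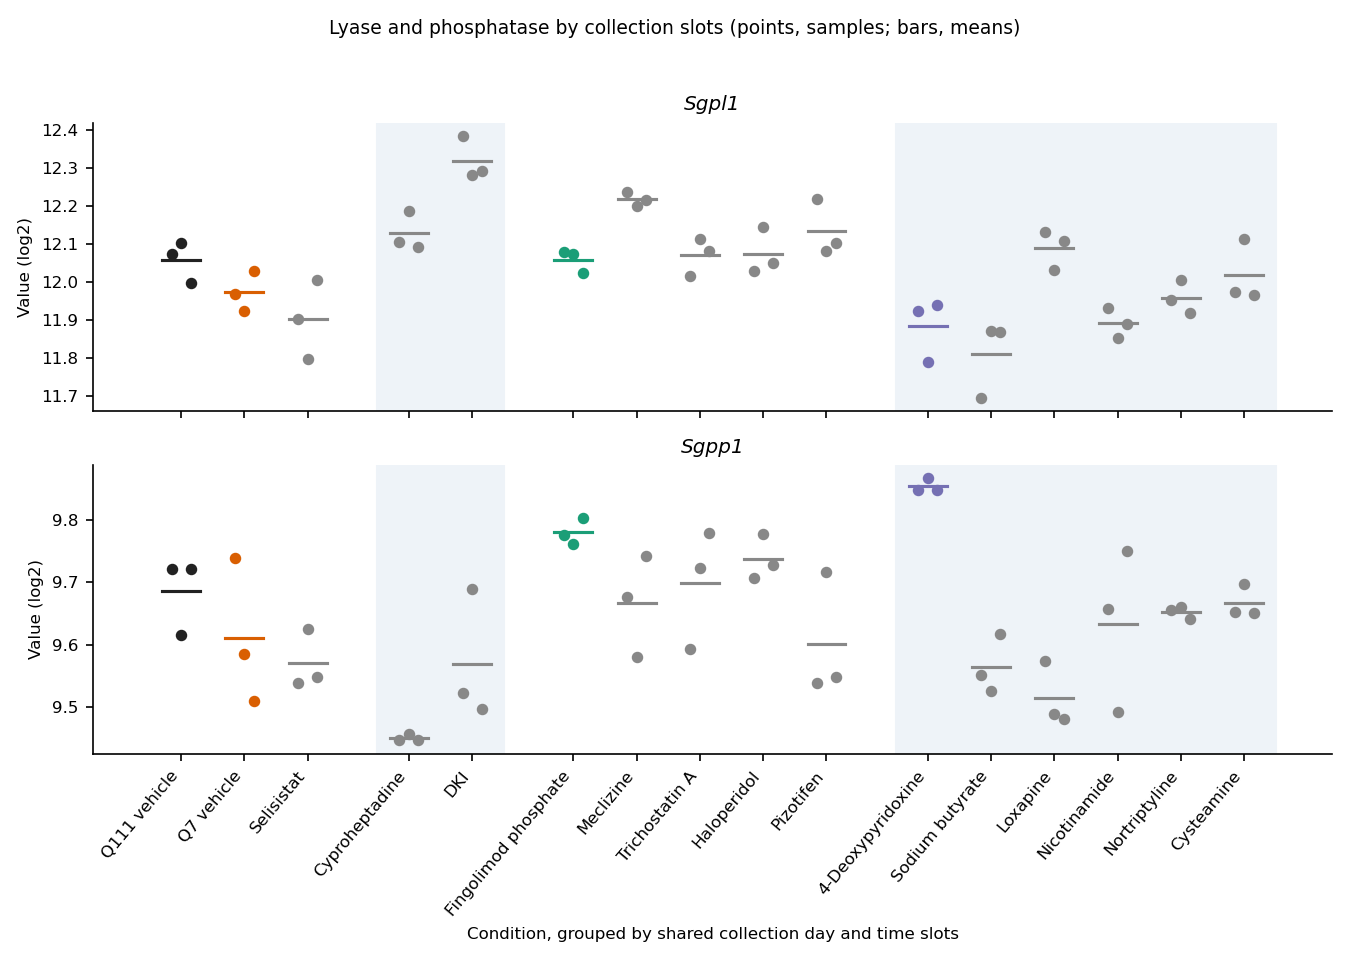
Log2 normalized abundance (vertical axis) of Sgpl1 and Sgpp1 in each sample (points) with the mean of 3 (bar) for all 16 conditions, grouped and shaded by shared collection day and time, with diacylglycerol kinase inhibitor II as DKI. Sgpp1 samples with 4-deoxypyridoxine, at 9.85 to 9.87, lie above every other sample, and its Sgpl1 samples overlap with nicotinamide and nortriptyline.

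Over all compounds, members were called in 8 of 14 comparisons with the vehicle. In those with the most called members, cyproheptadine had 5 of 8 beside 35.6% of all genes and diacylglycerol kinase inhibitor II 5 of 8 beside 42.3%. Meclizine had 4 of 8 beside 26.8%, and sodium butyrate 4 of 8 beside 37.5%. Trichostatin A had 2 of 8 beside 13.1%, pizotifen 1 of 8 beside 17.9% and loxapine 1 of 8 beside 21.9%. Limma called 0 of 8 with selisistat beside 0.515% of all genes, with nicotinamide beside 10.4%, with nortriptyline beside 3.83%, with haloperidol beside 0% and with cysteamine beside 7.83%. At an unadjusted p under 0.05 these had 2, 1, 0, 0 and 0 members. The corresponding numbers of all genes were 2307, 3542, 2486, 397 and 3082. Without selisistat replicate 3, or without vehicle replicate 3 for nicotinamide, 1 member was called, as it was for nicotinamide at a minimum mean of 6, without the day term or with the replicate block. Without replicate 2 of sodium butyrate 5 members were called and without replicate 2 of diacylglycerol kinase inhibitor II 6. All compounds share the 3 vehicle samples, so their comparisons are not independent.

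The moderated F test over the 15 STHdhQ111 conditions called 8 of the 8 tested members, beside 80.8% of all genes. The smallest limma adjusted p was that of S1pr2 (6.1e-10) and the largest that of Sphk1 (0.007). The median gene was called with 2 compounds. Sgpl1 was called with 4 compounds, Sgpp1, S1pr1 and S1pr3 with 3 each, Sphk2 and Spns2 with 2 each and Sphk1 with 1. S1pr2 was called with 6 compounds, always lower, and 9.85% of all genes were called with 6 compounds or more.

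**Figure D2:**
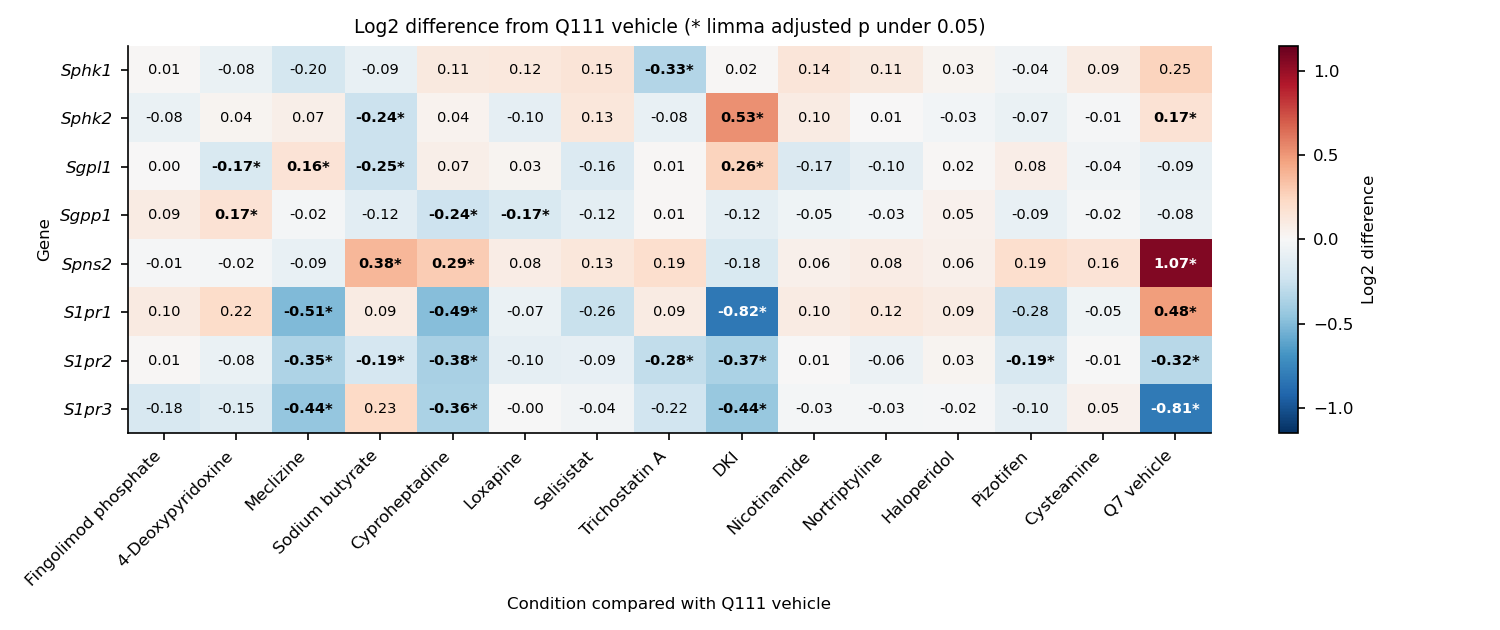
Fitted log2 difference from STHdhQ111 vehicle for the 8 tested members (rows) in 14 compounds (DKI, diacylglycerol kinase inhibitor II) and the STHdhQ7 line (columns), with an asterisk where the limma adjusted p was under 0.05. The column of fingolimod phosphate holds 0 asterisks and that of 4-deoxypyridoxine 2, and S1pr2 has 6 among the compounds.

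Sphk1, the mostly cytosolic kinase, lies on chromosome 11 of GRCm38 (ENSMUSG00000061878, chr11:116530925-116536674, plus strand). It stood at 6.71, 6.82 and 6.80 with trichostatin A, a histone deacetylase inhibitor, and at 7.02, 7.17 and 7.14 with vehicle. The groups did not overlap, and Sphk1 fell by 0.33 (-0.56 to -0.10, limma adjusted p = 0.044). Against haloperidol, collected in the same slots, it fell by 0.37 (limma adjusted p = 0.029). There limma called 2 of the 8 tested members, beside 11.1% of all genes. The call against vehicle was lost without any 1 of the 6 libraries. Without vehicle replicate 1, 2 or 3 the difference was -0.38, -0.30 and -0.32, and without trichostatin A replicate 1, 2 or 3 it was -0.30, -0.35 and -0.35, with limma adjusted p-values of up to 0.18. It was also lost without the filter on low values and with the collection time as a term (limma adjusted p = 0.065 and 0.056).

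Sphk2, the kinase found in the nucleus and at internal membranes, lies on chromosome 7 (ENSMUSG00000057342, chr7:45709467-45718002, minus strand). With diacylglycerol kinase inhibitor II it stood at 8.45, 8.19 and 8.31, and with vehicle at 7.76, 7.81 and 7.80. Every treated sample lay above every vehicle sample, and Sphk2 rose by 0.53, which is 1.44-fold (0.38 to 0.68, limma adjusted p = 1.9e-07). With sodium butyrate, another inhibitor of histone deacetylases, it stood at 7.55, 7.53 and 7.55. These samples lay under all of vehicle, and Sphk2 fell by 0.24 (-0.39 to -0.10, limma adjusted p = 0.0072). Trichostatin A samples, at 7.67, 7.81 and 7.64, overlapped with vehicle, and whether butyrate and trichostatin A differed was not tested. The annotation places Dbp and Rpl18 over Sphk2 on the other strand. With diacylglycerol kinase inhibitor II, Rpl18 differed by 0.41 and Dbp by -0.0035, and with butyrate they differed by 0.37 and 0.22. Any part of these neighbours in the Sphk2 values was not tested. The libraries were made with a directional kit, but how the quantification treated the strand is not stated.

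Sgpl1 (ENSMUSG00000020097, chr10:61098642-61147703, minus strand) moved in both directions. With diacylglycerol kinase inhibitor II it stood at 12.38, 12.28 and 12.29 and with meclizine at 12.24, 12.20 and 12.22. Both sets lay above the vehicle samples, at 12.07, 12.10 and 12.00. Sgpl1 rose by 0.26 with the inhibitor (0.14 to 0.37, limma adjusted p = 0.00029) and by 0.16 with meclizine (0.05 to 0.27, limma adjusted p = 0.032). With only the compared samples in the fit, limma adjusted p-values were 0.051 for the inhibitor and 0.1 for meclizine. The meclizine call was lost without vehicle replicate 1 (0.17) or 3 (0.13) and without meclizine replicate 1 (0.15), 2 (0.17) or 3 (0.16), with limma adjusted p-values between 0.051 and 0.15. Against haloperidol it was lost too, at 0.14 (limma adjusted p = 0.056).

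With sodium butyrate, Sgpl1 stood at 11.69, 11.87 and 11.87. These samples lay under all vehicle samples, and Sgpl1 fell by 0.25 (-0.36 to -0.13, limma adjusted p = 0.00063). Against nicotinamide and nortriptyline, collected in the slots of butyrate, the difference was -0.11 and was not called (limma adjusted p = 0.071). Loxapine was collected in those slots too, and there Sgpl1, at 12.13, 12.03 and 12.11, lay above all 6 samples of the references. It rose by 0.17 against them (0.07 to 0.26, limma adjusted p = 0.012), as the 1 member called of 8, beside 22.8% of all genes. Against vehicle, the loxapine samples of Sgpl1 overlapped with the vehicle samples. Nicotinamide samples lay under all vehicle samples, with a difference of -0.17 that just missed the threshold (limma adjusted p = 0.051).

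Sgpp1 (ENSMUSG00000021054, chr12:75714249-75735729, minus strand) had its lowest values with cyproheptadine, at 9.45, 9.46 and 9.45, against 9.72, 9.62 and 9.72 with vehicle. The groups did not overlap, and Sgpp1 fell by 0.24 (-0.36 to -0.11, limma adjusted p = 0.0022). With loxapine it stood at 9.57, 9.49 and 9.48, also under all vehicle samples, and fell by 0.17 (-0.29 to -0.05, limma adjusted p = 0.035). The loxapine call was lost without vehicle replicate 1 (-0.15) or 3 (-0.15) and without loxapine replicate 2 (-0.16) or 3 (-0.15), with limma adjusted p-values between 0.11 and 0.14. It was also lost against nicotinamide and nortriptyline, at -0.13 (limma adjusted p = 0.069).

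Spns2, which carries sphingosine phosphate out of the cell, lies on chromosome 11 (ENSMUSG00000040447, chr11:72451638-72489904, minus strand). With sodium butyrate it stood at 4.76, 4.58 and 4.45 and with cyproheptadine at 4.55, 4.41 and 4.56, and in vehicle at 4.19, 4.18 and 4.29. Neither set of treated samples overlapped with vehicle. Spns2 rose by 0.38 with butyrate (0.19 to 0.57, limma adjusted p = 0.0013) and by 0.29 with cyproheptadine (0.10 to 0.48, limma adjusted p = 0.013). Without cyproheptadine replicate 3 the latter was 0.27 and not called (limma adjusted p = 0.052). Against nicotinamide and nortriptyline, Spns2 rose by 0.31 with butyrate (limma adjusted p = 0.003). In that comparison limma called 4 of the 8 tested members, beside 30.8% of all genes. Mybbp1a overlaps Spns2 on the other strand, and it differed by -0.31 with butyrate and by 0.43 with cyproheptadine. Its part in the Spns2 values was not tested.

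The receptors were lower with several compounds. S1pr2, which couples to G12/13, lies on chromosome 9 (ENSMUSG00000043895, chr9:20962361-20976781, minus strand). In vehicle it varied little, at 9.06, 9.08 and 9.07. It stood at 8.65, 8.69 and 8.75 with cyproheptadine, at 8.60, 8.82 and 8.68 with diacylglycerol kinase inhibitor II and at 8.74, 8.70 and 8.72 with meclizine. All of these samples lay under all vehicle samples. S1pr2 fell by 0.38 with cyproheptadine (-0.49 to -0.27, limma adjusted p = 9.8e-07), by 0.37 with the inhibitor (-0.48 to -0.26, limma adjusted p = 7.2e-07) and by 0.35 with meclizine (-0.46 to -0.24, limma adjusted p = 4.7e-06).

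The remaining calls of S1pr2 were smaller. It stood at 8.76, 8.71 and 8.91 with trichostatin A, at 8.91, 8.93 and 8.81 with sodium butyrate and at 8.85, 8.91 and 8.89 with pizotifen. Again no treated sample reached the vehicle range. S1pr2 fell by 0.28 with trichostatin A (limma adjusted p = 0.00045) and by 0.19 with butyrate (limma adjusted p = 0.0049). With pizotifen it fell by 0.19 (-0.30 to -0.08, limma adjusted p = 0.013), and without pizotifen replicate 1 the value was -0.17 and not called (limma adjusted p = 0.062). Pizotifen and cyproheptadine are close structural relatives but were given at 5 and 10 uM, so they are not compared.

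S1pr1 (ENSMUSG00000045092, chr3:115710433-115715072, minus strand) had its lowest values with diacylglycerol kinase inhibitor II, at 6.47, 7.08 and 6.67. Replicate 2 was the highest of them and still lay under the vehicle samples at 7.56, 7.52 and 7.60. S1pr1 fell by 0.82, which is 1.77-fold (-1.06 to -0.58, limma adjusted p = 4.1e-07). It stood at 6.97, 7.14 and 7.04 with meclizine and at 7.11, 7.02 and 7.08 with cyproheptadine. Neither compound's samples reached those of vehicle. S1pr1 fell by 0.51 with meclizine (-0.74 to -0.27, limma adjusted p = 0.001) and by 0.49 with cyproheptadine (-0.73 to -0.26, limma adjusted p = 0.001).

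S1pr3 (ENSMUSG00000067586, chr13:51408639-51422797, plus strand) was lower with the same compounds. It stood at 4.85, 4.84 and 4.80 with meclizine, at 4.58, 4.97 and 4.94 with diacylglycerol kinase inhibitor II and at 4.84, 5.06 and 4.81 with cyproheptadine. Vehicle samples, at 5.35, 5.18 and 5.28, all lay above these. S1pr3 fell by 0.44 with meclizine (-0.64 to -0.25, limma adjusted p = 5e-04), by 0.44 with the inhibitor (-0.63 to -0.24, limma adjusted p = 0.00031) and by 0.36 with cyproheptadine (-0.56 to -0.17, limma adjusted p = 0.0031). With only the compared samples in the fit, the calls for the inhibitor and for cyproheptadine were lost (limma adjusted p = 0.057 and 0.067).

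Haloperidol shares the slots of meclizine and pizotifen. Against it, with meclizine, S1pr1 fell by 0.60, S1pr2 by 0.38 and S1pr3 by 0.43 (limma adjusted p = 0.00014, 1.1e-06 and 0.00078). These were the 3 called of 8 members, beside 25.7% of all genes. With pizotifen, S1pr1 stood at 7.34, 7.29 and 7.21, under all haloperidol samples at 7.62, 7.69 and 7.65. It fell by 0.37 and S1pr2 fell by 0.22 (limma adjusted p = 0.026 and 0.0047), the 2 called of 8 members, beside 14.7% of all genes. Against vehicle, S1pr1 with pizotifen differed by -0.28 and was not called (limma adjusted p = 0.099). With sodium butyrate, S1pr3 stood at 5.50, 5.40 and 5.60, above all 6 samples of nicotinamide and nortriptyline, and rose by 0.25 against them (limma adjusted p = 0.017). Against vehicle, its difference with butyrate was 0.23 and was not called (limma adjusted p = 0.056).

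**Figure D3:**
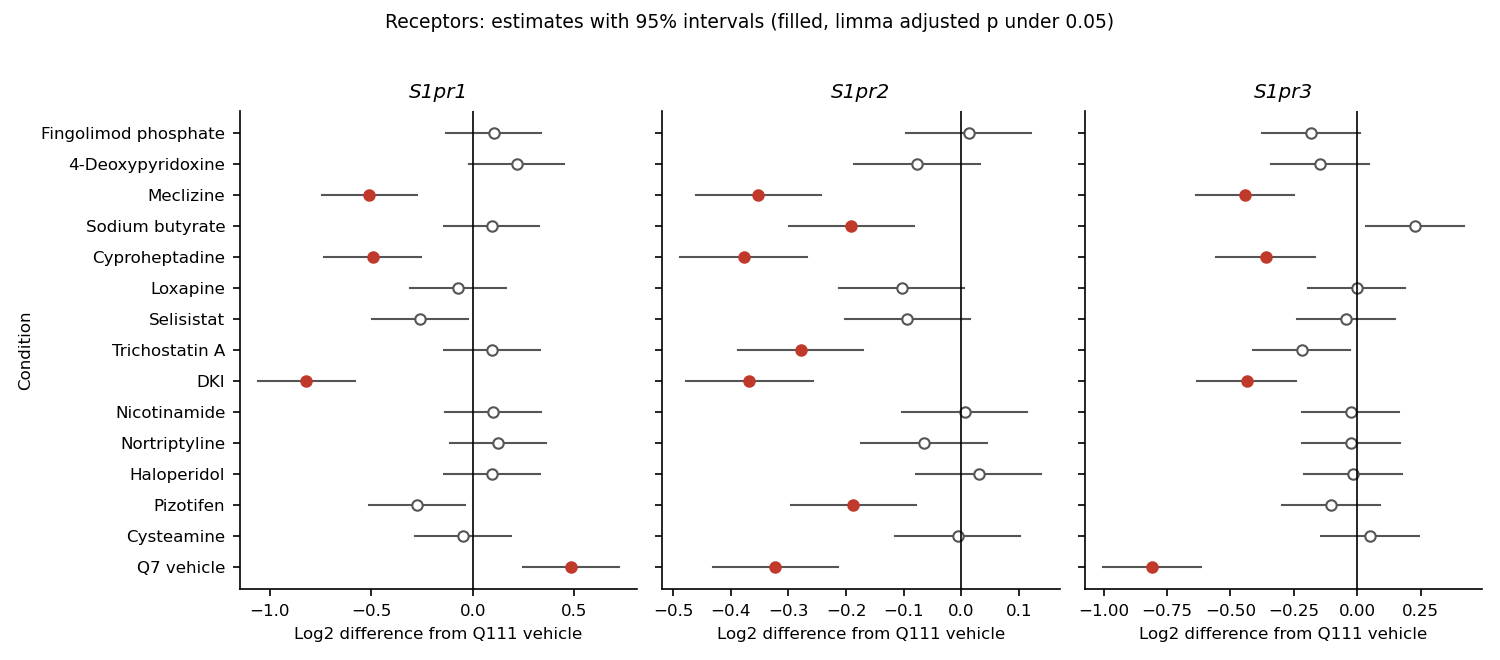
Fitted log2 difference from STHdhQ111 vehicle (horizontal axis, points) with its 95% confidence interval (bars) for S1pr1, S1pr2 and S1pr3 in each compound and the STHdhQ7 line, filled where the limma adjusted p was under 0.05, on a scale of its own in each panel. Meclizine, cyproheptadine and diacylglycerol kinase inhibitor II (DKI) lie left of 0 in all panels, and STHdhQ7 lies right of 0 for S1pr1 and left of 0 for S1pr2 and S1pr3.

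S1pr4 (ENSMUSG00000044199, chr10:81497747-81500132, minus strand), known from lymphoid cells, stayed between -2.13 and -2.12 in all 48 samples. S1pr5 (ENSMUSG00000045087, chr9:21242912-21248443, minus strand), known from oligodendrocytes and natural killer cells, stayed between -1.20 and -1.10. Values this low hardly vary on this scale. The 2 highest S1pr5 samples were replicates 1 and 2 with sodium butyrate, at -1.10 and -1.11, while its replicate 3, at -1.16, lay under all 3 STHdhQ7 samples. All 3 samples with sodium butyrate and all 3 of STHdhQ7 lay above every STHdhQ111 vehicle sample, though the closest agreed to 2 decimals.

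The promoters of S1pr2 and S1pr3, which were both lower with meclizine, cyproheptadine and diacylglycerol kinase inhibitor II, are shown as RefSeq gives them for GRCm38.p6, with 250 bases before the start and 50 after it. They lie at chr9:20976744-20977043 on the minus strand and at chr13:51408368-51408667 on the plus strand. RefSeq promoters were matched for 9 of the 10 members, all but S1pr1. Both strands were searched for GGAATG (bound by TEAD factors), TGACTCA (AP-1), TGACGTCA (CREB), GGGCGG (a GC box), CCAAT and TATAAA, and the matches found do not overlap. Capitals mark the matches, TGACGTCA and GGGCGG in S1pr2 and GGGCGG in S1pr3. A promoter of Sphk2, which was higher with the inhibitor, holds TGACGTCA and GGGCGG too, and promoters of Sgpl1 and S1pr5 hold GGGCGG.
S1pr2: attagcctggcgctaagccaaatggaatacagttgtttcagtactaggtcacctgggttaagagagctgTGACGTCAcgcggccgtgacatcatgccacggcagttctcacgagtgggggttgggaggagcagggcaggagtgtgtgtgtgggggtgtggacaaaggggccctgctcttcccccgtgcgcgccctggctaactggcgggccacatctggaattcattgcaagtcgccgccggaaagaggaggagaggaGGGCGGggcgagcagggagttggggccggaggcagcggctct
S1pr3: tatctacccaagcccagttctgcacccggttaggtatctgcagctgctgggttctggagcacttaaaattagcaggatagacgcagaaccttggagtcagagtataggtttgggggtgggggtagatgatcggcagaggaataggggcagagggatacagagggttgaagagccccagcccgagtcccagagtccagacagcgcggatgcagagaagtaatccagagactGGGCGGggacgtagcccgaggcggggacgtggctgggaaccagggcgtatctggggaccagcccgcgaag

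Of 32851 RefSeq promoters of this length, 1.79% hold TGACGTCA and 35.7% hold GGGCGG. The other motifs are held by 14.7% (GGAATG), 5.2% (TGACTCA), 37.4% (CCAAT) and 13.6% (TATAAA). GC content was 62% for S1pr2 and 59% for S1pr3, beside a median of 52.7% over all of these promoters. A match of letters is a description and shows no binding.

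The STHdhQ7 line, compared with STHdhQ111 in vehicle, asks how the huntingtin genotype and all else that separates these lines goes with the members. Spns2 stood at 5.22, 5.49 and 5.14 in STHdhQ7 and at 4.19, 4.18 and 4.29 in STHdhQ111. The groups were far apart, and Spns2 was 2.09-fold higher in STHdhQ7, a difference of 1.07 (0.88 to 1.25, limma adjusted p = 1.2e-12). S1pr1 stood at 7.73, 8.12 and 8.28, above all STHdhQ111 samples, and was higher by 0.48 (0.25 to 0.72, limma adjusted p = 0.00053). S1pr3 stood at 4.68, 4.35 and 4.35 and S1pr2 at 8.69, 8.87 and 8.69. Both lay under all STHdhQ111 samples, S1pr3 with a difference of -0.81 (standard error 0.095, limma adjusted p = 2.4e-09) and S1pr2 with -0.32 (standard error 0.054, limma adjusted p = 2.9e-06). Limma called 5 of the 8 tested members, beside 55.8% of all genes.

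Sphk2 was the fifth call in STHdhQ7, at 7.93, 8.04 and 7.91, above all STHdhQ111 samples by 0.17 (limma adjusted p = 0.042). It was lost without STHdhQ7 replicate 1 (0.19) or 2 (0.13) and without STHdhQ111 replicate 1 (0.15), 2 (0.18) or 3 (0.18), with limma adjusted p-values between 0.052 and 0.18. It was also lost with the collection time as a term (limma adjusted p = 0.051) and with only the compared samples in the fit (limma adjusted p = 0.095). Sphk1, at 7.11, 7.62 and 7.36, overlapped with STHdhQ111 and just missed the threshold (0.25, limma adjusted p = 0.053). Limma called 6 members without the filter on low values, without the day term, with the replicate block or after shifting samples to one median. Sgpl1 and Sgpp1 overlapped between the lines. Of the genes on the other strand, Mybbp1a, which overlaps Spns2, was higher in STHdhQ7 by 0.32 (limma adjusted p = 0.00016), and Dbp and Rpl18, over Sphk2, differed by 0.33 and 0.08 (limma adjusted p = 0.017 and 0.46). Their part in the values of the line was not tested.

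Marker genes moved with the line too. The neural progenitor genes Nes, Sox2 and Pax6 were higher in STHdhQ7 by 5.99, 4.10 and 2.59, and the leukocyte marker Ptprc lower, with a difference of -2.73. Of the 8 tested neural markers 5 were called, 4 higher and 1 lower. Of the 4 tested endothelial markers 2 were called, both higher, with Flt1 at a difference of 2.65, and 1 of 2 myeloid and lymphoid markers and 1 of 1 oligodendrocyte markers were lower. The log2 sum of the endothelial list was 9.21, 9.10 and 9.34 in STHdhQ7 and 9.30, 7.96 and 8.29 in STHdhQ111. The myeloid and lymphoid list summed to 7.40, 7.91 and 8.35 against 10.55, 10.75 and 10.47, and the oligodendrocyte list to 3.00, 3.12 and 3.12 against 3.29, 3.35 and 3.23. The neural list summed to 15.59, 15.73 and 15.76 against 15.42, 15.42 and 15.54. Such a sum mostly follows the genes with the highest values, so the neural sum says little of Nes, Sox2 and Pax6. Vim alone had means of 15.60 in STHdhQ7 and 15.42 in STHdhQ111, and Ptprc, of the myeloid and lymphoid list, 7.86 and 10.59. The part of such differences between the lines in the member values was not tested.

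**Figure D4:**
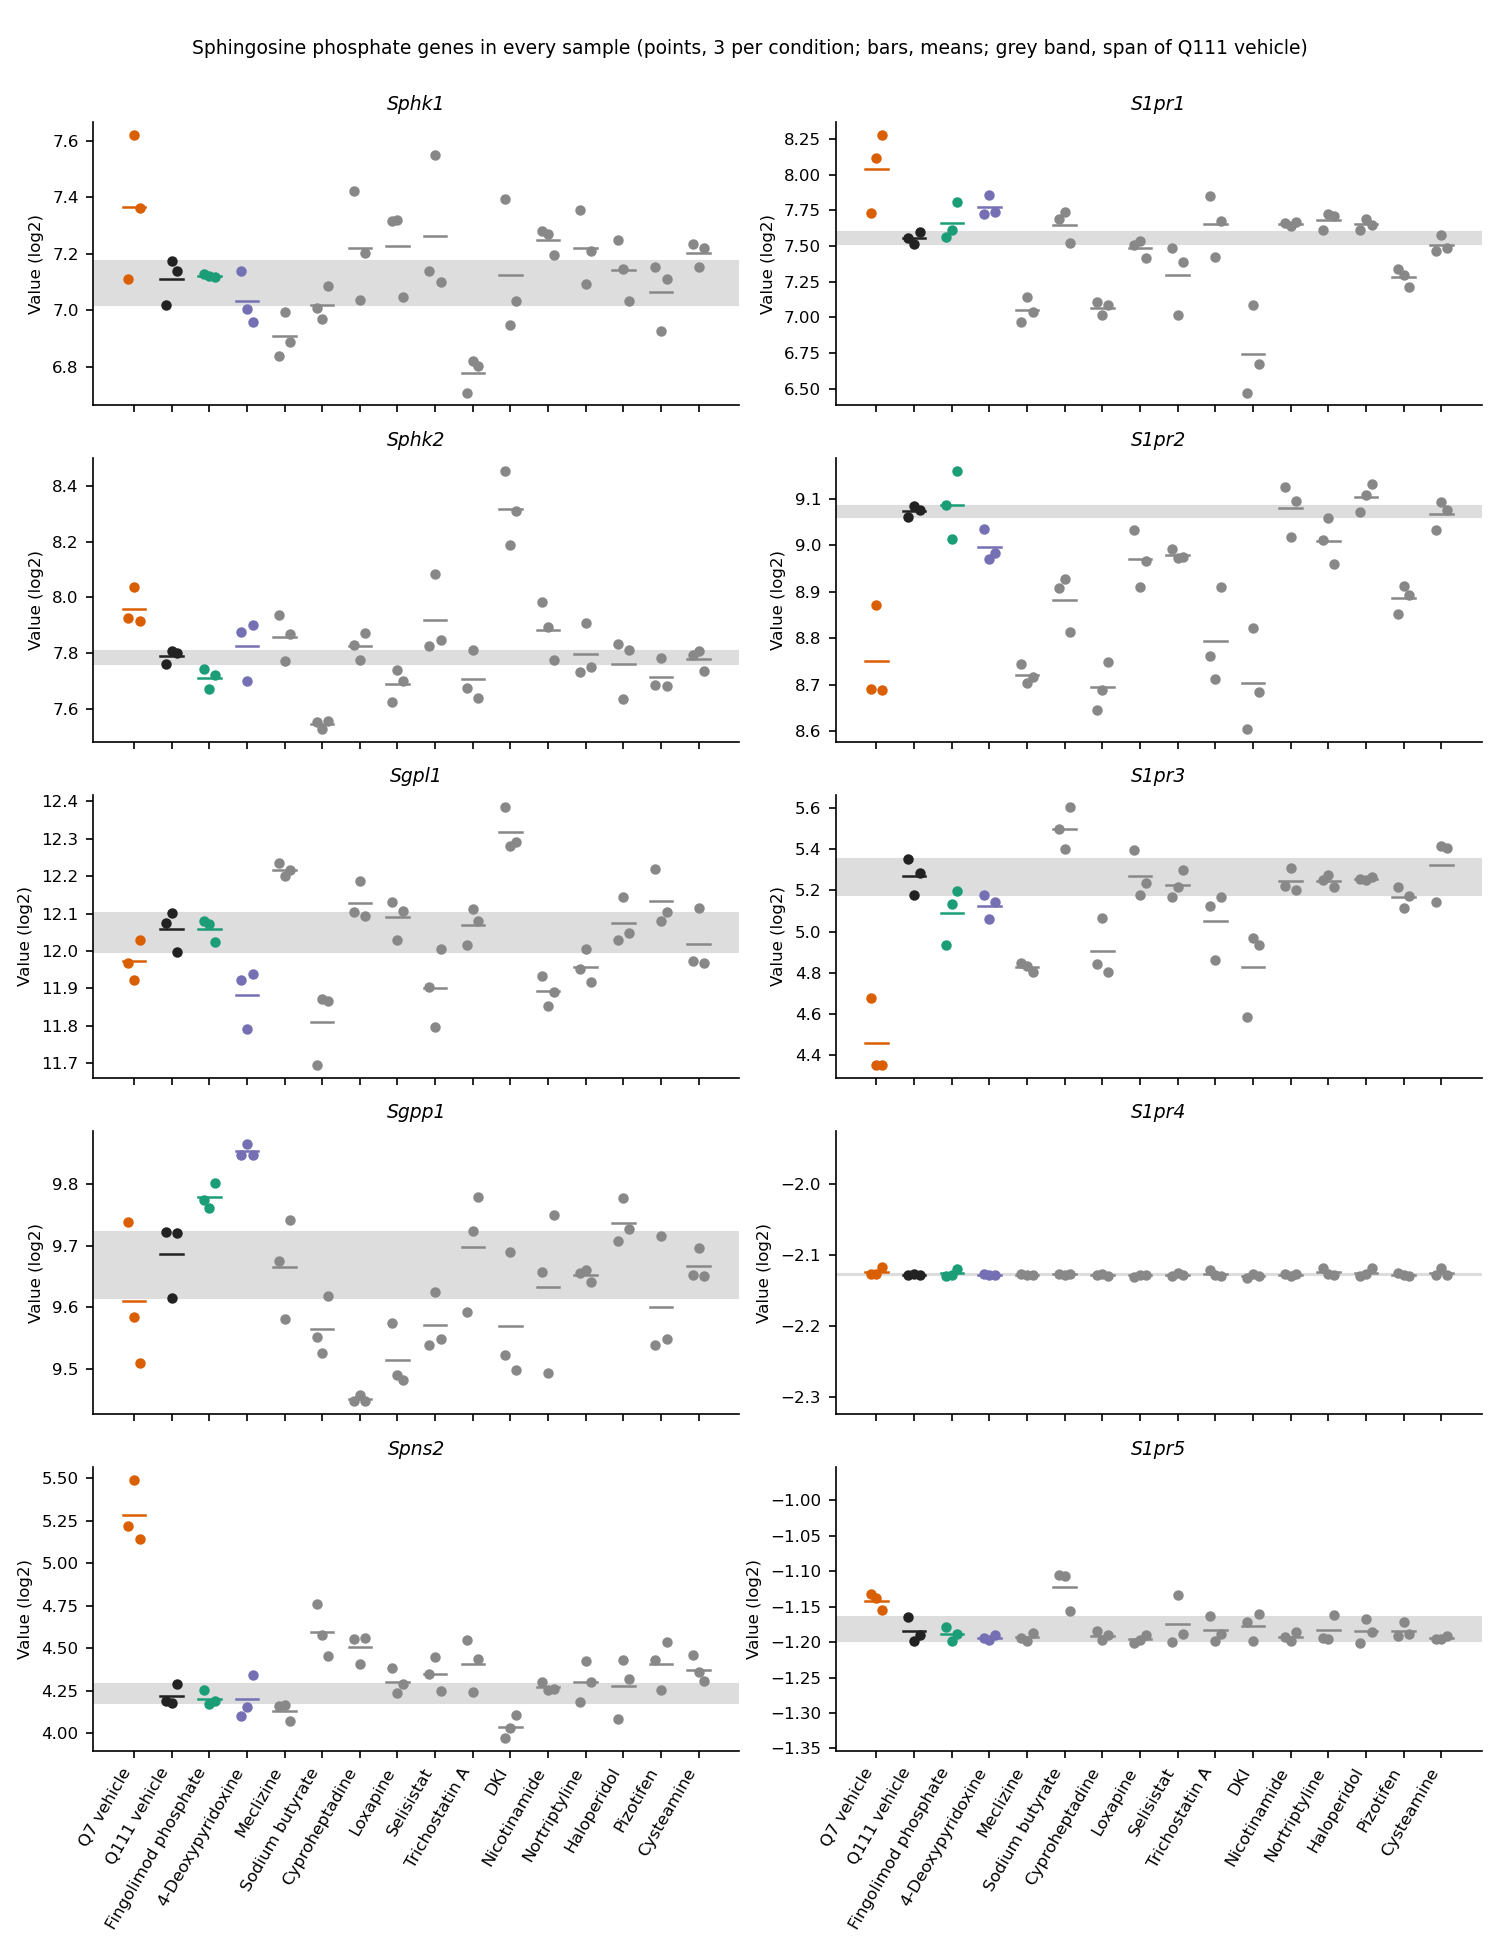
Log2 normalized abundance (vertical axis, own scale in each panel) of the 10 members in all 48 samples, with 3 points and their mean for each of 16 conditions and a grey band for the span of STHdhQ111 vehicle. Spns2 and S1pr1 are highest in STHdhQ7, S1pr1 is lowest with diacylglycerol kinase inhibitor II (DKI), and S1pr4 and S1pr5 lie under the minimum mean of 1 for testing.

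The conditions were ordered by their means for each member. The highest and lowest means were 7.36 ± 0.25 (SD, n = 3) in STHdhQ7 and 6.78 ± 0.06 with trichostatin A for Sphk1, and 8.32 ± 0.13 with diacylglycerol kinase inhibitor II and 7.54 ± 0.02 with sodium butyrate for Sphk2. They were 12.32 ± 0.06 with the inhibitor and 11.81 ± 0.10 with butyrate for Sgpl1. Sgpp1 ranged from 9.85 ± 0.01 with 4-deoxypyridoxine to 9.45 ± 0.006 with cyproheptadine, and Spns2 from 5.28 ± 0.18 in STHdhQ7 to 4.04 ± 0.07 with the inhibitor. S1pr1 ranged from 8.04 ± 0.28 in STHdhQ7 to 6.74 ± 0.31 with the inhibitor. S1pr2 ranged from 9.10 ± 0.03 with haloperidol to 8.69 ± 0.05 with cyproheptadine, and S1pr3 from 5.50 ± 0.10 with butyrate to 4.46 ± 0.19 in STHdhQ7. Of the 15 neighbouring pairs in each order, 2 had samples that did not overlap for Sphk2 and 2 for Sgpp1. These were diacylglycerol kinase inhibitor II over STHdhQ7 and loxapine over butyrate for Sphk2, and 4-deoxypyridoxine over fingolimod phosphate and loxapine over cyproheptadine for Sgpp1. Sphk1, Sgpl1, Spns2, S1pr1 and S1pr3 had 1 such pair each, and S1pr2 had 0. The widest of these gaps between neighbouring means was 0.69, for Spns2 in STHdhQ7 over sodium butyrate. Those of S1pr3 in STHdhQ7 under meclizine and of Sphk2 with the inhibitor over STHdhQ7 were 0.37 and 0.36. The pairs come from sorting the same means, and such pairs were counted for the members only. Whether their number is unusual among all genes was not tested.

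The genes with the pattern most like each of the 3 members with the widest range were sought over the 16 condition means with the collection day removed, among 9937 tested genes with a mean of at least 6. For S1pr1 they were Ilk, Tubb5 and Igsf10, with Pearson r of 0.958, 0.946 and 0.945. For Spns2 they were P3h4, Bpgm and Cdca4, with r of 0.947, 0.942 and 0.941. These genes were picked with STHdhQ7 among the conditions, and without it the r of the Spns2 neighbours was 0.869, 0.815 and 0.781. For S1pr3 they were A4galt, Snai1 and Phf13, with r of 0.935, 0.935 and 0.933, and 0.892, 0.871 and 0.889 without STHdhQ7. Those of S1pr1 were 0.948, 0.933 and 0.930 without it. These values describe the closest of many genes and have no p-value.

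Other genes of the pathway were read from lists. With fingolimod phosphate, limma called 0 genes in each of 7 pathway lists and 4 marker lists. Of these, de novo ceramide synthesis (13 tested) had a median of 0.05 and ceramide turnover (18 tested) -0.02, beside 0.0016 over all genes. Against haloperidol the ceramide lists had medians of 0.02 and -0.03.

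With 4-deoxypyridoxine, 4 of 13 genes of de novo ceramide synthesis were called, 1 higher and 3 lower, and 4 of 18 of ceramide turnover, 1 higher and 3 lower, beside 20.1% of all genes. Sptssa, a small subunit of the entry enzyme, rose by 0.24 (limma adjusted p = 0.0077), which without treated replicate 2 was 0.19 and not called (limma adjusted p = 0.08). Kdsr, the reductase of an early step of ceramide synthesis, fell by 0.23 (limma adjusted p = 0.0019), and the sphingomyelinase Smpd4 by 0.25 (limma adjusted p = 0.00017). Galc, which removes galactose from galactosylceramide, fell by 0.40 (limma adjusted p = 6.8e-05). Of the enzymes that use pyridoxal phosphate, as the lyase does, 1 of 25 was called, lower, with a list median of -0.01, and 1 of 3 genes of vitamin B6 handling was lower. Of YAP and SRF target genes 1 of 15 was called, the myosin light chain Myl9, which rose by 0.58 (limma adjusted p = 0.00049). Other sphingosine phosphate handling had 2 of 7 called, 1 in each direction, and lysophosphatidic acid receptors and autotaxin 1 of 5, higher. Of the marker lists, 1 of 8 neural genes was called, higher, and 0 genes of the others.

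Against nicotinamide and nortriptyline, collected in the same slots, the list counts with 4-deoxypyridoxine differed from those against vehicle. Of the enzymes that use pyridoxal phosphate 5 of 25 were called, 3 higher and 2 lower, and of YAP and SRF target genes 4 of 15, 2 higher and 2 lower, beside 10.6% of all genes. De novo ceramide synthesis had 3 of 13 called, 1 higher and 2 lower, ceramide turnover 3 of 18, 1 higher and 2 lower, and other sphingosine phosphate handling 1 of 7, higher. Limma called 0 of 5 genes of the lysophosphatidic acid list and 0 of 3 of vitamin B6 handling, and 1 and 0 of them had an unadjusted p under 0.05. Limma called 0 of the 8 neural and 0 of the 4 endothelial markers, and 0 and 1 of them had an unadjusted p under 0.05. Sptssa, Kdsr, Smpd4, Galc and Myl9 were called in the same direction as against vehicle, with differences of 0.18, -0.26, -0.20, -0.18 and 0.34.

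The other compounds read in this way were those with 5 of 8 members called. With cyproheptadine, which had 35.6% of all genes called, 7 of 13 genes of de novo ceramide synthesis were called, all higher, with a list median of 0.17, among them the ceramide synthase Cers6 by 0.35, Kdsr by 0.34 and Sptlc1, a subunit of the entry enzyme, by 0.32. Of ceramide turnover 9 of 18 were called, 6 higher and 3 lower, with Ugcg, the glucosylceramide synthase, higher by 0.63. Of the lysophosphatidic acid receptors and autotaxin 4 of 5 were lower, Lpar4 with a difference of -0.44, Lpar1 with -0.43 and Enpp2, which is autotaxin, with -0.42, and the list median was -0.42. Of YAP and SRF target genes 8 of 15 were called, 5 higher and 3 lower, and of other sphingosine phosphate handling 1 of 7. Of the enzymes that use pyridoxal phosphate 17 of 25 were called, 12 higher and 5 lower, and of vitamin B6 handling 1 of 3. Marker lists moved as well. Of the endothelial markers 2 of 4 were called, both higher, with Flt1 at a difference of 0.48, and of the neural markers 3 of 8, all lower, with Vim at -0.28. Of the myeloid and lymphoid markers 1 of 2 was called, Csf1r, higher at 2.22 against 1.93, with a list median of -0.01. The log2 sum of that list, which mostly follows Ptprc, was 10.93, 10.03 and 9.90 against 10.55, 10.75 and 10.47 in vehicle.

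With diacylglycerol kinase inhibitor II, which had 42.3% of all genes called, 6 of 13 genes of de novo ceramide synthesis were called, 5 higher and 1 lower, with Kdsr higher by 0.57 and the ceramide synthase Cers2 by 0.54. Ceramide turnover had 11 of 18 called, 6 higher and 5 lower. Of the lysophosphatidic acid list 2 of 5 were called, with Lpar1 at -0.61 and Enpp2 at 0.48. YAP and SRF target genes had 8 of 15 called, 2 higher and 6 lower, other sphingosine phosphate handling 4 of 7 and vitamin B6 handling 2 of 3. Of the enzymes that use pyridoxal phosphate 15 of 25 were called, 10 higher and 5 lower. Of the neural markers 2 of 8 were called, both lower, with Vim at -0.50, a call that was lost with only the compared samples in the fit (-0.51, limma adjusted p = 0.094), and of the endothelial markers 1 of 4 was called, higher by 0.17. That call was lost without replicate 1 or 2 of vehicle or any replicate of the inhibitor, with differences between 0.16 and 0.17 and limma adjusted p-values between 0.051 and 0.072.

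Marker lists were also read in the other compounds with members called. With sodium butyrate, which had 37.5% of all genes called, 2 of 4 endothelial markers, 1 of 2 myeloid and lymphoid markers and 1 of 1 oligodendrocyte markers were called, all higher, and 4 of 8 neural markers, 2 in each direction. With meclizine, which had 26.8% of all genes called, 1 of 8 neural markers was called, lower, and limma called 0 of 4 endothelial markers, 1 of which had an unadjusted p under 0.05. With loxapine, which had 21.9% of all genes called, 2 of 4 endothelial markers were called, both higher, 2 of 2 myeloid and lymphoid markers, 1 in each direction, and 2 of 8 neural markers, both lower. With pizotifen, beside 17.9% of all genes, 2 of 4 endothelial markers and 1 of 2 myeloid and lymphoid markers were called, all higher. The log2 sum of the myeloid and lymphoid list was 10.35, 10.42 and 10.41 with butyrate and 10.31, 10.28 and 10.02 with pizotifen. Both sets lay under the vehicle samples, at 10.55, 10.75 and 10.47. With trichostatin A, beside 13.1%, 1 of 4 endothelial markers was called, higher, and 1 of 8 neural markers, lower.

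In STHdhQ7, 9 of 13 genes of de novo ceramide synthesis were called, 7 higher and 2 lower, with the ceramide synthase Cers4 higher by 2.14 and a list median of 0.21. Ceramide turnover had 12 of 18 called, 8 higher and 4 lower, with Galc higher by 1.28. Of other sphingosine phosphate handling 5 of 7 were called, with the lipid phosphatase Plpp3 higher by 0.98, and of the lysophosphatidic acid list 4 of 5, with Enpp2 at -1.68. YAP and SRF target genes had 12 of 15 called, 9 higher and 3 lower, with Acta2, the smooth muscle actin, higher by 6.56. Vitamin B6 handling had 1 of 3 and the enzymes that use pyridoxal phosphate 15 of 25 called. Beside 55.8% of all genes, these shares range from lower to higher and no list was tested as a whole.

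**Figure D5:**
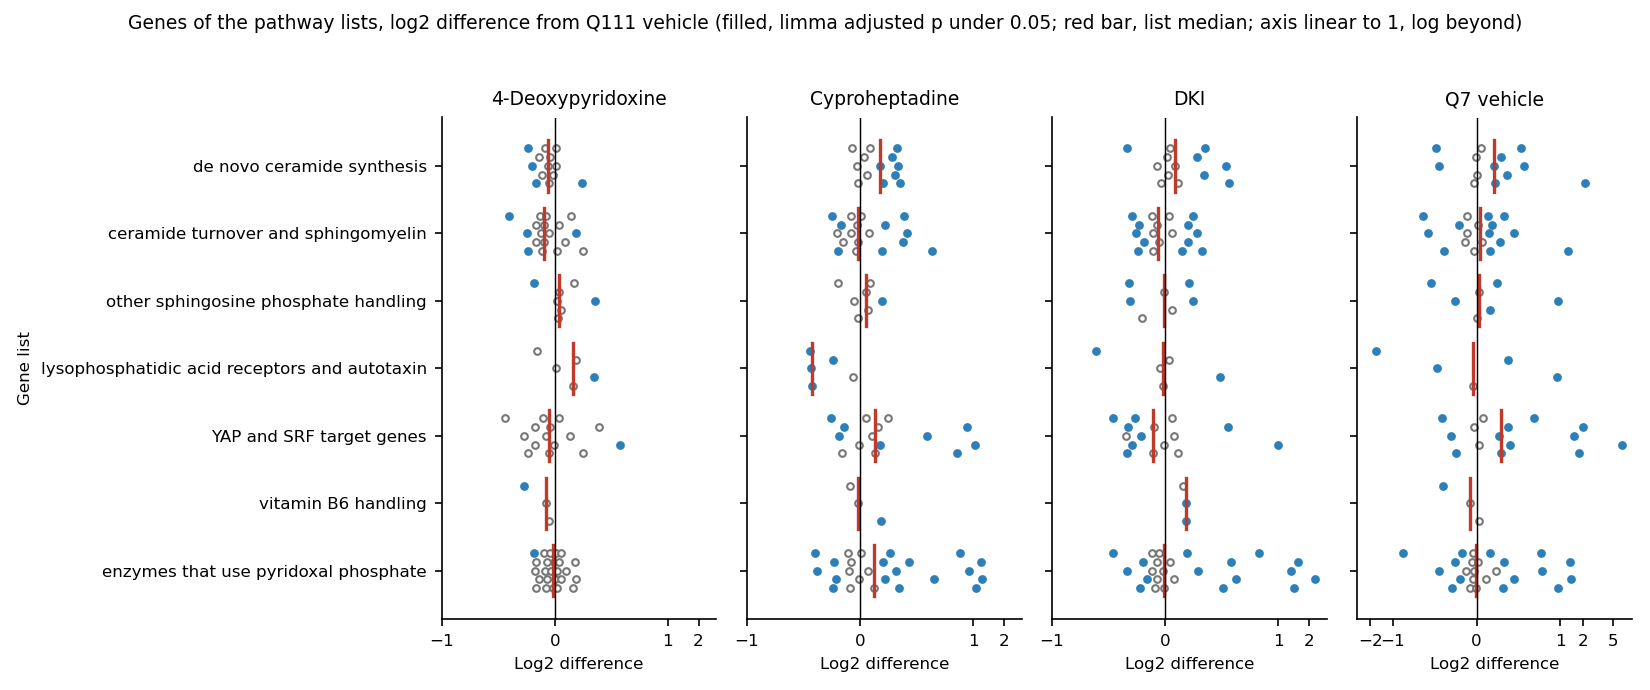
Fitted log2 difference from STHdhQ111 vehicle (horizontal axis, linear to 1 and logarithmic beyond, wider for STHdhQ7) of each tested gene of the 7 pathway lists with 4-deoxypyridoxine, cyproheptadine, diacylglycerol kinase inhibitor II (DKI) and in STHdhQ7, filled where the limma adjusted p was under 0.05, with list medians as red bars. With cyproheptadine the called genes of de novo ceramide synthesis all lie right of 0, and those of the lysophosphatidic acid list left of 0.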

How the data were processed

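The authors trimmed reads of directional polyA RNA libraries with Trimmomatic 0.36, quantified them with RSEM on GRCm38.p5 and normalized them with DESeq2. The deposited values are log2 normalized abundances, and the transformation is not named. They were used as deposited, without a pseudocount. Each gene was fitted in limma 3.58.1 (R 4.3.3) on all 48 samples, with terms for the 16 conditions and for collection day, moderated variances, a trend on abundance and 30 residual degrees of freedom. Two-sided p-values were adjusted by the Benjamini-Hochberg method over 13409 genes per comparison, and values under 0.05 were called. Named list genes come from the up to 4 called genes per list and comparison with the largest differences and the same direction in all 3 samples. Members and lists were chosen with earlier results of these data known. The references in the same slots for meclizine, trichostatin A, pizotifen, sodium butyrate and loxapine, and the genes overlapping members, were chosen after seeing the data. Alternatives were other filters, day and time terms, a replicate block, only compared samples, a common median, no variance trend and each replicate left out. The procedure was checked on simulated data. Positions come from GENCODE release M21, newer than the authors' annotation.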

Additional observations from a re-analysis of the deposited data

How the results depend on the processing

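Of 30 called member differences, 18 kept their call and direction in every alternative, and 0 of the called results reversed. Over 847 alternatives of 59 member differences, 46 lost a call and 1 gained one. Members called with 4-deoxypyridoxine went from 2 to 1 without a filter on low values, 1 with the collection time, 0 with only the compared samples and 1 with a common median, and to between 0 and 2 without 1 library. Cyproheptadine went from 5 to 3 at a minimum mean of 6, which removes Spns2 and S1pr3 from the test. Trichostatin A went from 2 to 1 without a filter, to 1 with the collection time and to 1 without any 1 library. Diacylglycerol kinase inhibitor II went from 5 to 3 with only the compared samples. Pizotifen went from 1 to 2 with only the compared samples and to 2 with haloperidol as the reference, chosen after seeing the data, and to between 0 and 1 without 1 library. Loxapine had between 0 and 1 without 1 library, and selisistat had between 0 and 1. Nicotinamide went from 0 to 1 at a minimum mean of 6, to 1 without the day term, to 1 with the replicate block, and to between 0 and 1 without 1 library. With condition means removed, samples with the same replicate number had a mean correlation of -0.0487 across genes and others 0.0245. The number equals the collection day in 46 of 48 samples, so number and day can hardly be told apart. The collection time leaves a difference between conditions that hold each day and time once as it is, and changes only its error. 4-Deoxypyridoxine against nicotinamide and nortriptyline went from 1 to 2 with only the compared samples. Where no cause is given, the cause was not tested. A lone sample or pair left in a group is assumed to vary like the other groups. Unknown depth leaves counting error unmeasured, and small values are compressed by the scale.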
